A study of Mus musculus with 7 samples.

Results

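Genes for collagens, laminins and other extracellular matrix glycoproteins were followed across 7 RNA sequencing libraries of mouse uterus, labelled as epithelial cells of the endometrium. The 39 genes were taken by symbol from a table of 24353 genes, which writes symbols in capitals (COL1A1, COL17A1, LAMB2, HSPG2, FN1 and POSTN for Col1a1, Col17a1, Lamb2, Hspg2, Fn1 and Postn): 19 collagen chains, 7 laminin chains, 3 genes for nidogens and perlecan, 5 for cell-adhesive and matricellular glycoproteins, 3 for elastic fibre proteins, and 2 for the crosslinking enzyme lysyl oxidase and the small proteoglycan biglycan. All groups shared the strain C57BL/6, female sex and, as recorded, the loss of the ovaries, which had been removed at 6 to 7 weeks of age, and no allele is named in the labels. The records count 18 mice without ovaries, beside arms of 6 for vehicle, tamoxifen, and tamoxifen plus alpelisib. Whether the 18 include the 2 estradiol mice is unclear from these numbers. Estradiol was given to 2 mice as a pellet of 0.01 mg made to release over 60 days, tamoxifen as 0.5 mg daily under the skin in peanut oil, and alpelisib as 30 mg/kg daily by mouth on top of tamoxifen, all for 28 days. The vehicle group, abbreviated ED, is represented by 1 library, and estradiol, tamoxifen and tamoxifen plus alpelisib (called the combination below) by 2 each. Whether the vehicle library holds 1 mouse or a pool of its 6, and how epithelium was separated from the collected uterine horns, are not given in the sources used here. Alpelisib came in its own carrier of polyethylene glycol, Tween and propylene glycol, and the labels do not say that the other arms received that carrier. The treatments name the question: how estrogen, a selective estrogen receptor modulator with partial agonist action in the uterus, and added inhibition of PI3K alpha change this tissue when ovarian hormones are missing.

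The extracellular matrix of the endometrium has an interstitial part and a basement membrane. In the interstitial part, fibrillar collagens I, III and V form fibres, collagens XII, XIV and XVI decorate them, and collagen VI builds beaded filaments around cells. The basement membrane under the epithelium and around vessels and muscle is a sheet of collagen IV and laminin, bridged by nidogens and perlecan. Each laminin joins an alpha, a beta and a gamma chain. Collagens VII and XVII belong to the anchoring complex of epithelium: collagen XVII spans the membrane of basal epithelial cells, and collagen VII forms the anchoring fibrils beneath. Most interstitial collagen in the uterus is known as a product of stromal cells, whereas the anchoring collagens are made largely by epithelium.

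Promoter sequence is shown for 4 chains, because they stand for the opposite behaviours described below. Col4a5 and Col4a6 are collagen IV chains that were highest with estradiol and start back to back, 1343 bases apart on opposite strands of chromosome X. Col7a1 and Col17a1 are the anchoring collagens that were highest with tamoxifen plus alpelisib. Each run covers the 190 bases from 250 to 61 bases before the gene's start in RefSeq on build GRCm38.p6, 5′ to 3′ on the gene's strand, with capitals for matches to CCAAT or TATAAA on either strand.
Col4a5, chrX:141475169-141475358, plus strand: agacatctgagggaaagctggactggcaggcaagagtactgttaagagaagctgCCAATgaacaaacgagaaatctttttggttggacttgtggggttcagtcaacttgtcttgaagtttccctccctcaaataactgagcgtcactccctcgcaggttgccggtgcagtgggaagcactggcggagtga
Col4a6, chrX:141474137-141474326, minus strand: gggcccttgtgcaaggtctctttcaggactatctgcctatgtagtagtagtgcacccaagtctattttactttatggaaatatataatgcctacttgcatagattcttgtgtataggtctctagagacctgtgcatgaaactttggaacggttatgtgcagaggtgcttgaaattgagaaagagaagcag
Col7a1, chr9:108953336-108953525, plus strand: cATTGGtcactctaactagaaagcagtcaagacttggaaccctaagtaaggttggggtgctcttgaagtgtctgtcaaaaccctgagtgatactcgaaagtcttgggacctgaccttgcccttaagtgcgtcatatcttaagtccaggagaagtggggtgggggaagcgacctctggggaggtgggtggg
Col17a1, chr19:47692103-47692292, minus strand: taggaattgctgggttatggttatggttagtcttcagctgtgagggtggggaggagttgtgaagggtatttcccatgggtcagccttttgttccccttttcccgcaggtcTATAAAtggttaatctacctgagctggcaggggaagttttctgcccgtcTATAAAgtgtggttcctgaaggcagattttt
The Col17a1 run holds 2 TATAAA matches, those of Col4a5 and Col7a1 hold 1 CCAAT match each, and that of Col4a6 holds none of either. RefSeq promoter entries were found for 27 of the 39 genes. Over their 250 upstream bases and both strands, the estrogen response element (GGTCA, any 3 bases, TGACC) was matched in 0 of 27 (0.0629% of 27025 promoters of the same length), the AP-1 site TGANTCA in 1 (3.7% against 6.87%), TATAAA in 3 (11.1% against 13%), CCAAT in 10 (37% against 34.5%) and the GC box GGGCGG in 16 (59.3% against 32.9%). The median GC content was 58.8% in these promoters and 52% over all. A match describes the letters only, and an absent match says that these letters are not in this window.

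Levels are given as FPKM, fragments scaled to the length of the transcript and to the fragments of the library, which allows comparison between genes per length. Fibulin 1 (Fbln1), a glycoprotein of elastic fibres and basement membranes, had the highest mean level of the 39 genes over the 7 libraries, from 38.4 FPKM in the vehicle library to 69.5 in tamoxifen 1. The laminin alpha chain Lama5 followed at 25.3 to 44.9 FPKM, and in the vehicle library it was the higher of the pair at 39.9. Among collagens, Col1a2 reached the highest level, 25.3 FPKM in estradiol 2. Tests used log2(FPKM + 1) and genes with at least 1 FPKM in at least 1 library, and 36 of the 39 genes entered. The others were Lama1, a laminin alpha chain, with at most 0.0496 FPKM, the matricellular glycoprotein gene Tnc, with at most 0.142, and the fibrillin gene Fbn1, with at most 0.738. Lama1 was listed at 0 in estradiol 2 and both libraries of tamoxifen plus alpelisib, and Tnc in tamoxifen 1 and tamoxifen plus alpelisib 1. Col5a1, Col15a1 and Nid1 reached 1 FPKM in the vehicle library alone, and Col4a2 and Col4a6 in the estradiol libraries alone, so these 5 could enter the tests only by being high in that group. Col6a3, Col12a1, Col14a1, Nid2, Hspg2, Eln and Lox reached it with estradiol and in vehicle only. Col7a1 reached it only with tamoxifen, alone or with alpelisib. These genes too entered only through the groups where they were high. By group mean, 20 of the 39 genes were highest with estradiol, 11 in vehicle, 5 with tamoxifen and 3 in the combination. The lowest mean was in tamoxifen for 19 and in the combination for 14.

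**Figure D1:**
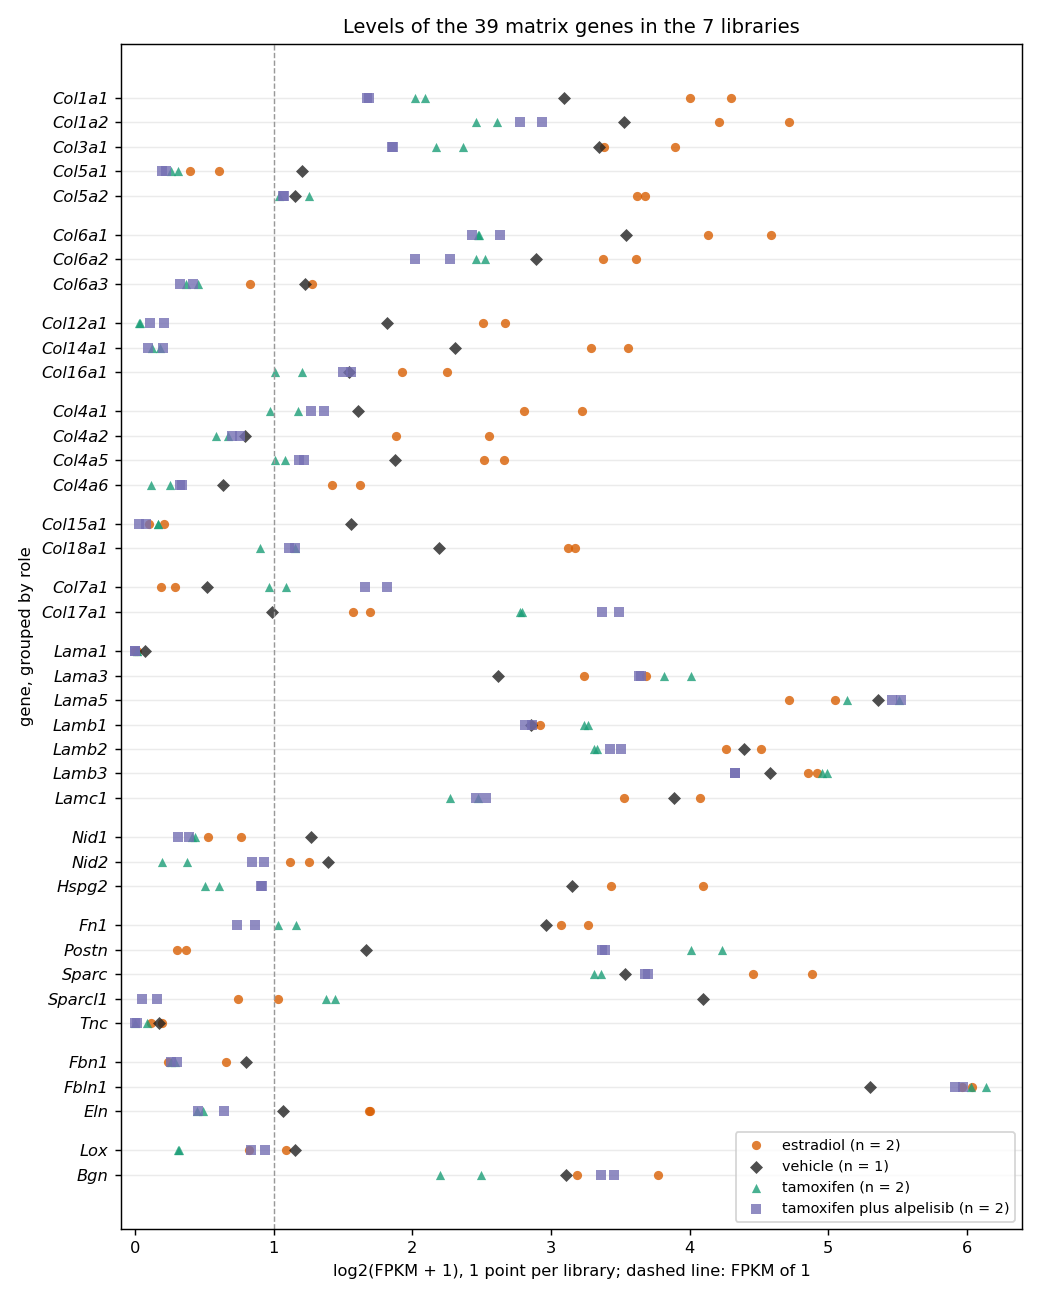
Level of each of the 39 genes on the log2(FPKM + 1) scale, 1 point per library and 1 colour per group, with genes grouped by role and a dashed line at 1 FPKM. Most collagens lie furthest right in the estradiol libraries, while Postn, Col7a1 and Col17a1 lie furthest right in the libraries with tamoxifen.

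Cell makeup bears on all of these values, since fewer cells of a type and less RNA per cell cannot be told apart in bulk RNA. All 11 epithelial markers were tested and high, with Epcam between 202 and 289 FPKM. Their sum was 3603 and 2986 FPKM with estradiol, 7482 in vehicle, 5199 and 6995 with tamoxifen, and 7050 and 7629 in the combination. Estradiol was thus lowest, with 0 of the 11 higher and 4 lower than vehicle and a median log2 fold change of -0.43. With tamoxifen, 4 were higher and 1 lower than with estradiol. Over all genes tested, 22.7% were higher and 12.8% lower with estradiol than vehicle, and 12.3% and 36.2% with tamoxifen than estradiol. Stromal markers summed to 98.9 FPKM in vehicle, 52.2 to 56 with estradiol, 18.5 and 19.7 with tamoxifen, and 24.2 and 25.7 in the combination. Such sums weigh the most abundant markers most. Between tamoxifen and estradiol the 10 stromal markers tested had a median log2 fold change of 0.06, beside -0.26 over all genes. Of them 1 was higher and 2 lower. The other marker lists are given after the matrix genes.

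With estradiol, more of these genes were higher than lower against the vehicle library. Of the 36 genes tested, 17 were higher and 5 lower (adjusted p under 0.05, limma), where 35.5% of all 12314 genes tested passed, 22.7% higher and 12.8% lower. Those higher included 4 collagen IV chains, 3 of 5 fibrillar collagens, 2 of 3 collagen VI chains and 2 of 3 fibril-associated collagens. Of the genes called, Col4a2 and Col4a6 had entered through estradiol alone, and Col5a1, Col15a1 and Nid1, 3 of the 5 lower, through vehicle alone, so their calls lend the counts no support. The lists of other collagens, other laminin and basement membrane genes, elastic fibre genes and proteoglycans, given below, each had fewer genes higher than lower in this comparison. The genes' median log2 fold change was 0.57, beside 0.12 over all genes. Scaling by median-of-ratios size factors, which brings that median over all genes to 0, left 10 higher and 5 lower and ended the calls of Col1a2, Col6a1, Col6a2, Col17a1, Lama3, Eln and Fbln1. With the spread taken from these 2 groups alone 6 genes passed: Col14a1, Col15a1, Col4a1, Col5a2, Postn and Sparcl1.

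Tamoxifen had the opposite count against the same library. Of 36 genes, 4 were higher and 20 lower, with 39% of all genes passing, 14.9% higher and 24.1% lower. The genes higher were Col17a1, Lama3, Postn and Fbln1. Those lower included 4 of 5 fibrillar collagens, both multiplexin collagens and all 3 genes for nidogens and perlecan. Col5a1, Col15a1 and Nid1, each in 1 of these counts, had entered through vehicle alone, so their calls lend the counts no support. Also among those lower, Col6a3, Col12a1, Col14a1, Nid2, Hspg2, Eln and Lox had entered only through estradiol and vehicle, and their calls lend none either. The median log2 fold change was -0.82, against -0.12 over all genes, and with size factors 7 genes were higher and 20 lower.

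Set directly against estradiol, where both groups have 2 libraries, tamoxifen had 24 of 36 genes lower and 5 higher, while 48.5% of all genes passed, 36.2% lower and 12.3% higher. Col4a2 and Col4a6, among those lower, had entered through estradiol alone, so their calls lend the count no support. The same holds for Col6a3, Col12a1, Col14a1, Nid2, Hspg2, Eln and Lox, also lower, which had entered only through estradiol and vehicle. It holds as well for Col7a1 among those higher, which had entered only through libraries with tamoxifen. Among the 39 genes, every chain of collagens IV, VI, XII, XIV and XVI was lower, whereas outside them Col6a4 was higher (1.85 ± 0.12, adjusted p = 0.000207) and Col4a4, a collagen IV chain named after its values were seen, did not pass (-0.41 ± 0.14, adjusted p = 0.0573). Col7a1, Col17a1, Lamb1, Postn and Sparcl1 were higher. Leaving out 1 library ended the calls of Col6a3 (adjusted p = 0.0749 and 0.107 without tamoxifen 1 or 2) and Sparcl1 (0.0613 to 0.112 without estradiol 1 or either tamoxifen library). The median log2 fold change was -1.10 and that of all genes -0.26. Size factors gave 9 higher and 23 lower. The comparisons with vehicle share 1 library, so their values are set side by side below and no overlap between them is read as a result.

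**Figure D2:**
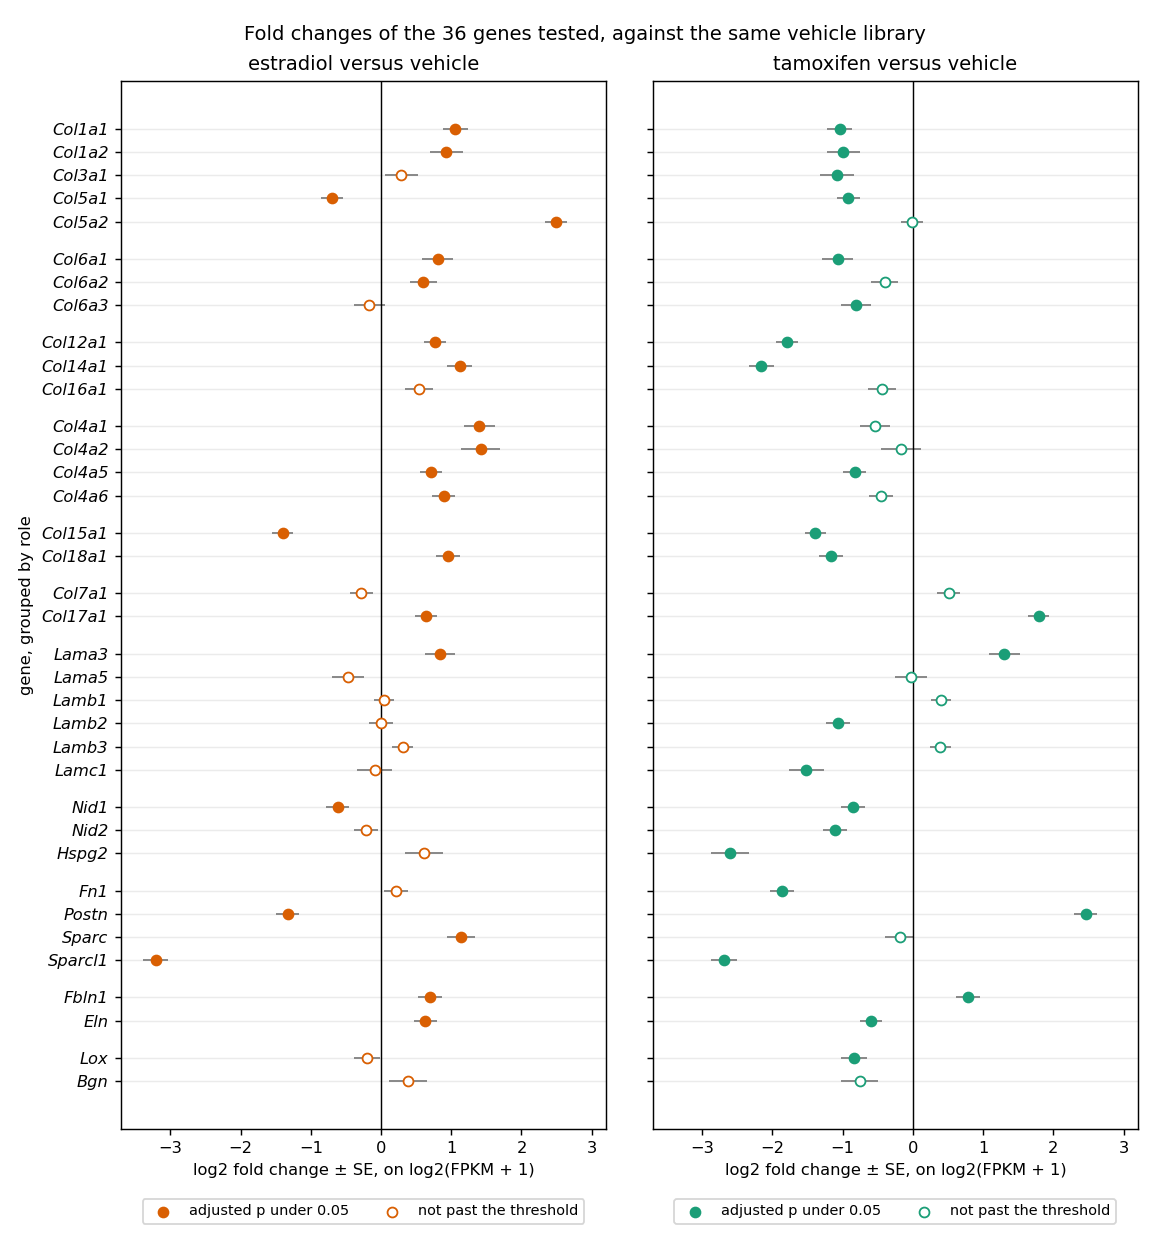
Log2 fold change ± SE of the 36 genes tested, for estradiol (left) and tamoxifen (right) against the same vehicle library, on the log2(FPKM + 1) scale. Filled points have an adjusted p under 0.05: 17 higher and 5 lower with estradiol, 4 higher and 20 lower with tamoxifen.

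Among the fibrillar collagens, Col1a1, which encodes the main chain of collagen I, stood at 15.0 and 18.7 FPKM with estradiol, 7.52 with vehicle, 3.26 and 3.05 with tamoxifen, and 2.19 and 2.23 in the combination. The 4 groups do not overlap and fall in that order. Its log2 fold change against vehicle was 1.06 ± 0.18 with estradiol (adjusted p = 0.00682) and -1.04 ± 0.18 with tamoxifen (adjusted p = 0.00573), and tamoxifen was 5.34-fold below estradiol (log2 -2.09 ± 0.15, adjusted p = 0.000249). The partner chain Col1a2 had 17.5 and 25.3, 10.5, 5.09 and 4.51, and 5.87 and 6.63 FPKM in the same order of groups. It rose with estradiol (0.93 ± 0.24, adjusted p = 0.0256) and fell with tamoxifen (-0.99 ± 0.24, adjusted p = 0.0185), the latter not past the threshold without tamoxifen 2 (-0.92, adjusted p = 0.064). Collagen III (Col3a1), at 9.42 and 13.9, 9.16, 4.14 and 3.50, and 2.63 and 2.61 FPKM, fell with tamoxifen (-1.08 ± 0.24, adjusted p = 0.0143). That call too ended without tamoxifen 2 (-0.98, adjusted p = 0.0535). Its difference between estradiol and vehicle did not pass (0.29 ± 0.24, adjusted p = 0.372).

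The collagen V chains went apart. Col5a2 stood at 11.8 and 11.3 FPKM with estradiol and between 1.05 and 1.38 in the other 5 libraries. No other library came near the estradiol pair, and vehicle lies between the tamoxifen libraries. Estradiol raised it 9.40-fold over vehicle (2.49 ± 0.16, adjusted p = 0.000481), the highest log2 fold change of the 36 genes in that comparison, while tamoxifen against vehicle gave -0.01 ± 0.16 (adjusted p = 0.964). The partner chain Col5a1 had 1.30 FPKM in vehicle, 0.520 and 0.315 with estradiol, 0.241 and 0.194 with tamoxifen, and 0.165 and 0.142 in the combination. It was lower than vehicle with estradiol (-0.70 ± 0.16, adjusted p = 0.019) and with tamoxifen (-0.92 ± 0.16, adjusted p = 0.0064). Col5a2 also parted from its chromosomal neighbour Col3a1: the ratio of Col3a1 to Col5a2 was 0.798 and 1.23 with estradiol, 7.46 in vehicle and between 2.38 and 3.32 with tamoxifen, alone or with alpelisib.

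Collagen VI, the filament-forming collagen of the cell surround, moved with collagen I in its chain of highest level. Col6a1 had 16.5 and 23.0 FPKM with estradiol, 10.7 in vehicle, 4.54 and 4.57 with tamoxifen, and 4.40 and 5.19 in the combination. Estradiol lay above vehicle and both tamoxifen groups below it, and the tamoxifen groups overlap. The log2 fold change was 0.81 ± 0.22 with estradiol (adjusted p = 0.0322), a call that ended without estradiol 2 (0.59, adjusted p = 0.0597), and -1.07 ± 0.22 with tamoxifen (adjusted p = 0.0113). Col6a2 rose with estradiol (0.60 ± 0.19, adjusted p = 0.0476; 0.48, adjusted p = 0.115 without estradiol 2) and gave -0.40 ± 0.19 with tamoxifen (adjusted p = 0.138). Col6a3, never above 1.42 FPKM, fell with tamoxifen (-0.81 ± 0.22, adjusted p = 0.0269), with adjusted p = 0.0731 and 0.0901 without tamoxifen 1 or 2.

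The fibril-associated collagens XII and XIV had the lowest ratios of tamoxifen to vehicle among the 19 collagens. Col12a1 had 4.69 and 5.35 FPKM with estradiol, 2.52 in vehicle, 0.0176 and 0.0237 with tamoxifen, and 0.153 and 0.0769 in the combination. Tamoxifen is thus 122-fold below vehicle by mean FPKM, a ratio that rests on very low values, while the log2 fold change on log2(FPKM + 1) was -1.79 ± 0.16 (adjusted p = 0.00052). Col14a1 had 8.79 and 10.7, 3.94, 0.130 and 0.0879, and 0.0668 and 0.151 FPKM in the same order. Its libraries with and without alpelisib overlap, both far below vehicle and estradiol. Tamoxifen was 36.2-fold below vehicle (-2.16 ± 0.18, adjusted p = 0.000388), and estradiol 2.48-fold above it (1.12 ± 0.18, adjusted p = 0.00552). Col16a1 differed less, from 1.01 FPKM in tamoxifen 1 to 3.76 in estradiol 2, and passed between tamoxifen and estradiol (-0.98 ± 0.16, adjusted p = 0.00401) but not against vehicle.

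Collagen IV, the network collagen of basement membranes, was higher with estradiol than vehicle in the 4 chains among the 39 genes. Col4a2 and Col4a6 entered the tests through estradiol alone. Of the other chains, named after their values were seen, Col4a4 did not pass (0.51 ± 0.18, adjusted p = 0.0644) and Col4a3, never above 0.861 FPKM, was not tested. Col4a1 had 5.97 and 8.34 FPKM with estradiol, 2.05 in vehicle, 1.26 and 0.967 with tamoxifen, and 1.57 and 1.41 in the combination. Estradiol stood 3.49-fold above vehicle (1.40 ± 0.22, adjusted p = 0.00541) and the tamoxifen libraries just below vehicle, where the difference did not pass (-0.54 ± 0.22, adjusted p = 0.0999). Col4a2, which starts 21 bases from Col4a1, had 2.68 and 4.88 FPKM with estradiol and at most 0.735 elsewhere (1.42 ± 0.28, adjusted p = 0.011). The other head to head pair, whose upstream sequences are printed above, likewise had its highest values with estradiol. Col4a5 had 4.73 and 5.33 FPKM there, 2.67 in vehicle, 1.12 and 1.01 with tamoxifen, and 1.27 and 1.33 in the combination. It rose with estradiol (0.71 ± 0.16, adjusted p = 0.0155) and fell with tamoxifen (-0.83 ± 0.16, adjusted p = 0.00792). Col4a6 had 1.68 and 2.08, 0.554, 0.189 and 0.0852, and 0.267 and 0.250 FPKM, and rose with estradiol (0.89 ± 0.17, adjusted p = 0.00982), while its value for tamoxifen against vehicle was -0.45 ± 0.17 (adjusted p = 0.0747).

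The multiplexins are collagens of basement membrane zones, and their chains carry antiangiogenic fragments at the end. Col18a1 had 8.005 and 7.72 FPKM with estradiol, 3.57 in vehicle, 0.870 and 1.23 with tamoxifen, and 1.16 and 1.22 in the combination. It rose with estradiol (0.95 ± 0.17, adjusted p = 0.00826) and fell with tamoxifen (-1.17 ± 0.17, adjusted p = 0.00315). Col15a1 stood apart, with 1.94 FPKM in vehicle and at most 0.155 in the 6 treated libraries. It was lower than vehicle with estradiol (-1.40 ± 0.15) and with tamoxifen (-1.39 ± 0.15; adjusted p = 0.00161 and 0.00104).

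The anchoring collagens of epithelium went the other way. Col17a1 had 1.97 and 2.23 FPKM with estradiol, 0.984 in vehicle, 5.86 and 5.90 with tamoxifen, and 9.34 and 10.2 in the combination. The groups do not overlap and rise in the order vehicle, estradiol, tamoxifen, tamoxifen plus alpelisib. Tamoxifen raised it 5.97-fold over vehicle (1.79 ± 0.15, adjusted p = 0.000477), estradiol 2.13-fold (0.64 ± 0.15, adjusted p = 0.0221), and tamoxifen stood above estradiol (1.15 ± 0.13, adjusted p = 0.000973). Col7a1 had 0.222 and 0.138 FPKM with estradiol, 0.431 in vehicle, 0.956 and 1.13 with tamoxifen, and 2.15 and 2.52 in the combination. Here estradiol was lowest, and again no groups overlap. Col7a1 was higher with tamoxifen than with estradiol (0.79 ± 0.13, adjusted p = 0.00459), while against vehicle tamoxifen lay at the threshold (0.51 ± 0.16, adjusted p = 0.0502) and passed with size factors (0.59, adjusted p = 0.0254).

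**Figure D3:**
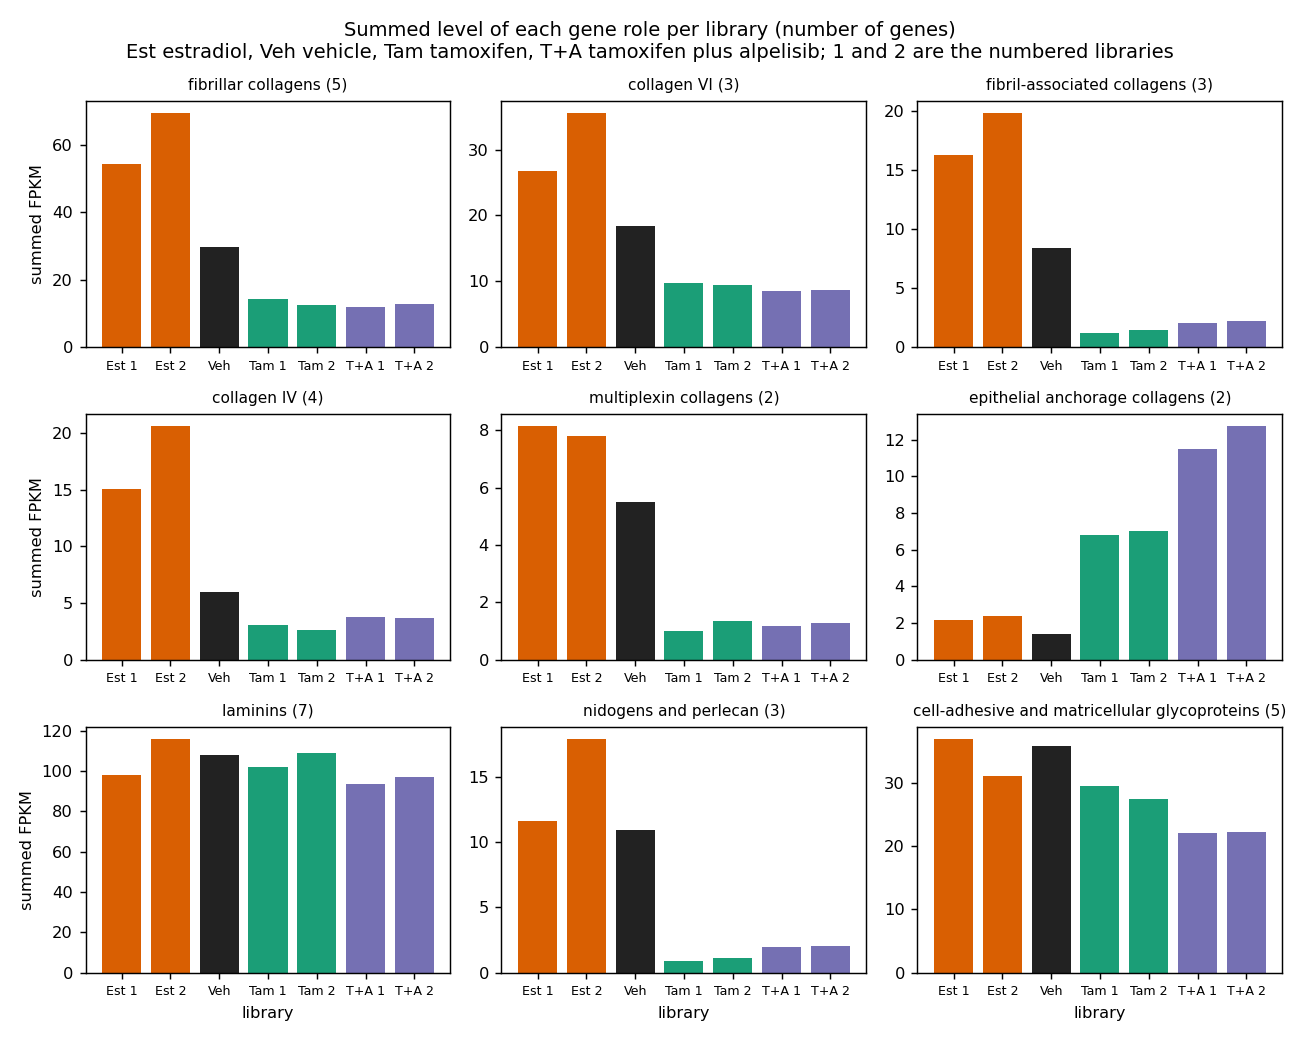
Summed FPKM of the genes of each of 9 roles, 1 bar per library, with the number of genes in brackets and a separate vertical axis from 0 in each panel. Interstitial and collagen IV sums are highest with estradiol, laminin sums stay between 93.8 and 116 FPKM, and the sum of Col7a1 and Col17a1 runs from 1.42 FPKM in vehicle to 12.8 in tamoxifen plus alpelisib 2.

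Laminin chains, the second main component of basement membranes, kept a near level sum while single chains moved in opposite directions. The 7 chains together had 98.0 and 116 FPKM with estradiol, 108 in vehicle, 102 and 109 with tamoxifen, and 93.8 and 96.9 in the combination. Lama3, the alpha chain of laminin-332, which epithelium uses for anchorage, had 8.41 and 11.8, 5.12, 15.1 and 13.1, and 11.4 and 11.5 FPKM in that order. All treated libraries lay above vehicle, with tamoxifen 2.75-fold higher (1.30 ± 0.22, adjusted p = 0.00552) and estradiol 1.98-fold (0.84 ± 0.22, adjusted p = 0.028). The beta chain Lamb2 had 18.2 and 21.9 FPKM with estradiol, 20.0 in vehicle, 8.91 and 9.04 with tamoxifen, and 9.75 and 10.4 in the combination. Estradiol and vehicle overlap, and both tamoxifen groups lie well below them. Tamoxifen lowered Lamb2 (-1.07 ± 0.17, adjusted p = 0.0042) and the widely used gamma chain Lamc1 (-1.52 ± 0.25, adjusted p = 0.00486), which had 13.8 FPKM in vehicle and 4.56 and 3.82 with tamoxifen. Lamb1, at 6.01 to 8.64 FPKM, passed only between tamoxifen and estradiol (0.36 ± 0.12, adjusted p = 0.0447), a call that ended whichever of these 4 libraries was left out (adjusted p = 0.0641 to 0.129). Lama5 did not differ from vehicle past the threshold in any treated group (adjusted p = 0.92, 0.156 and 0.686 for tamoxifen, estradiol and tamoxifen plus alpelisib).

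The ratios between chains moved with these changes. Lamb1 over Lamb2, the alternative beta chains, was 0.346 and 0.3 with estradiol, 0.312 in vehicle, 0.945 and 0.956 with tamoxifen, and 0.616 and 0.606 in the combination. The groups with tamoxifen lie above the others, and the pair with alpelisib lies between. Lama5 over Lamc1 was 2.03 to 2.89 in the estradiol and vehicle libraries and 7.49 to 11.6 in the other 4. Col1a1 over Col1a2 was 0.639 to 0.856 without alpelisib and 0.373 and 0.336 with it. These ratios are descriptions of levels per length and were not tested.

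Nidogens and perlecan link laminin to collagen IV. Perlecan (Hspg2), a large heparan sulfate proteoglycan, had 9.81 and 16.1 FPKM with estradiol, 7.89 in vehicle, 0.419 and 0.519 with tamoxifen, and 0.873 and 0.886 in the combination. Its tamoxifen libraries lay 16.8-fold below vehicle (-2.60 ± 0.27, adjusted p = 0.000951) and 27.6-fold below estradiol (-3.21 ± 0.22, adjusted p = 0.000249). Estradiol against vehicle did not pass (0.61 ± 0.27, adjusted p = 0.127), but did without estradiol 1 (0.94, adjusted p = 0.0116). Nid2 had 1.39 and 1.16, 1.62, 0.141 and 0.294, and 0.792 and 0.907 FPKM, and fell with tamoxifen (-1.11 ± 0.17, adjusted p = 0.00364). Nid1, at 1.41 FPKM in vehicle and at most 0.700 elsewhere, was lower with tamoxifen (-0.85 ± 0.17, adjusted p = 0.00974) and with estradiol (-0.62 ± 0.17, adjusted p = 0.0314).

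Among the matricellular genes were the highest and the lowest log2 fold change of the 36 between tamoxifen and vehicle, those of Postn and Sparcl1. Periostin (Postn), a matrix protein that binds integrins and collagen, had 0.290 and 0.232 FPKM with estradiol, 2.17 in vehicle, 17.8 and 15.1 with tamoxifen, and 9.48 and 9.30 in the combination. The groups do not overlap: estradiol is lowest, tamoxifen highest, and the pair with alpelisib lies between tamoxifen and vehicle. Periostin was 7.59-fold above vehicle with tamoxifen (2.46 ± 0.16, adjusted p = 0.000206), 8.30-fold below it with estradiol (-1.33 ± 0.16, adjusted p = 0.00263), and 63.1-fold higher with tamoxifen than with estradiol (3.79 ± 0.13, adjusted p = 4.09e-05). Sparcl1, a counter-adhesive relative of osteonectin, had 16.1 FPKM in vehicle, 0.675 and 1.04 with estradiol, 1.59 and 1.72 with tamoxifen, and 0.0361 and 0.116 in the combination. Vehicle stands alone above every treated library, and the pair with alpelisib lies lowest.

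Sparcl1 was lower than vehicle in each treated group, with log2 fold changes of -3.21 ± 0.18 for estradiol, -2.69 ± 0.18 for tamoxifen and -3.99 ± 0.18 for the drug pair. The adjusted p were 0.000421, 0.000207 and 8.09e-05 in that order. Fibronectin (Fn1), the adhesive glycoprotein that integrins bind, had 7.42 and 8.64 FPKM with estradiol, 6.80 in vehicle, 1.04 and 1.24 with tamoxifen, and 0.663 and 0.823 in the combination. It fell 5.97-fold with tamoxifen (-1.87 ± 0.17, adjusted p = 0.000595), and estradiol against vehicle did not pass (0.21 ± 0.17, adjusted p = 0.38). Osteonectin (Sparc), a collagen-binding glycoprotein, had 28.5 and 21.0 FPKM with estradiol and 8.91 to 12.0 in the other 5 libraries, and rose 2.34-fold with estradiol (1.14 ± 0.20, adjusted p = 0.00849).

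Elastic fibre genes split. Fbln1 was above vehicle in all 6 treated libraries, at 59.4 to 69.5 FPKM against 38.4, with log2 fold changes of 0.78 ± 0.17 for tamoxifen and 0.70 ± 0.17 for estradiol (adjusted p = 0.0128 and 0.0215). Elastin (Eln) had 2.22 and 2.23 FPKM with estradiol, 1.09 in vehicle, 0.404 and 0.364 with tamoxifen, and 0.560 and 0.369 in the combination. It was higher with estradiol (0.63 ± 0.16, adjusted p = 0.0261) and lower with tamoxifen (-0.60 ± 0.16, adjusted p = 0.0275). The first call ended in 4 of 8 other settings (size factors, a pseudocount of 0.1, only these groups, a replicate block), and the second without either tamoxifen library (adjusted p = 0.0754 and 0.0879). Lysyl oxidase (Lox), which crosslinks collagen and elastin, had 1.13 and 0.763, 1.22, 0.238 and 0.245, and 0.912 and 0.785 FPKM. Tamoxifen alone lay apart and below the other groups (-0.84 ± 0.18 against vehicle, adjusted p = 0.0117; -0.64 ± 0.14 against estradiol, adjusted p = 0.0123, or 0.0538 and 0.0562 without tamoxifen 1 or 2).

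Adding alpelisib to tamoxifen changed 7 of the 36 genes, 4 upward and 3 downward, with 11.7% of all genes passing, 6.93% upward and 4.81% downward. Biglycan, Nid2 and both anchoring collagens rose, and Sparcl1, periostin and the laminin chain Lamb3 fell. None of the 5 fibrillar, 3 collagen VI, 3 fibril-associated or 4 collagen IV genes passed. The median log2 fold change was 0.09, beside -0.03 over all genes. Without either alpelisib library no gene passed (8 of 36 with an unadjusted p under 0.05 in each case), and without tamoxifen 1 or 2 the count was 1 and 2.

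Biglycan (Bgn), a small leucine-rich proteoglycan that binds collagen fibres, had 3.60 and 4.65 FPKM with tamoxifen and 9.93 and 9.27 in the combination, beside 12.7 and 8.12 with estradiol and 7.60 in vehicle. The tamoxifen pair lies below every other library, and the pair with alpelisib lies within the range of estradiol. Its log2 fold change was 1.06 ± 0.22 (adjusted p = 0.0322). Col7a1 rose a further 2.25-fold (0.71 ± 0.13, adjusted p = 0.025) and Col17a1 1.67-fold (0.65 ± 0.13, adjusted p = 0.0267). Nid2 rose too (0.61 ± 0.14, adjusted p = 0.0404), to levels below its estradiol and vehicle values.

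Of the genes that fell, Sparcl1 changed most, 21.8-fold by mean FPKM between values that are low in both groups (-1.30 ± 0.15, adjusted p = 0.00644). Periostin fell from its tamoxifen level by 0.75 on the log2 scale (SE 0.13, adjusted p = 0.0221). Lamb3, the beta chain of laminin-332, had 30.7 and 30.0 FPKM with tamoxifen, 19.1 and 19.03 with alpelisib added, 22.8 in vehicle, and 29.3 and 27.9 with estradiol. The pair with alpelisib lies below all other libraries (-0.64 ± 0.12, adjusted p = 0.0246). Lox was 3.51-fold higher with alpelisib and missed the threshold (0.57 ± 0.14, adjusted p = 0.0528), passing with size factors (0.61, adjusted p = 0.0329). All 7 calls ended without either alpelisib library. Those of Col7a1, Col17a1, Nid2, Bgn and Lamb3 also ended without either tamoxifen library and that of periostin without tamoxifen 1, with adjusted p from 0.070 to 0.276 over these fits.

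**Figure D4:**
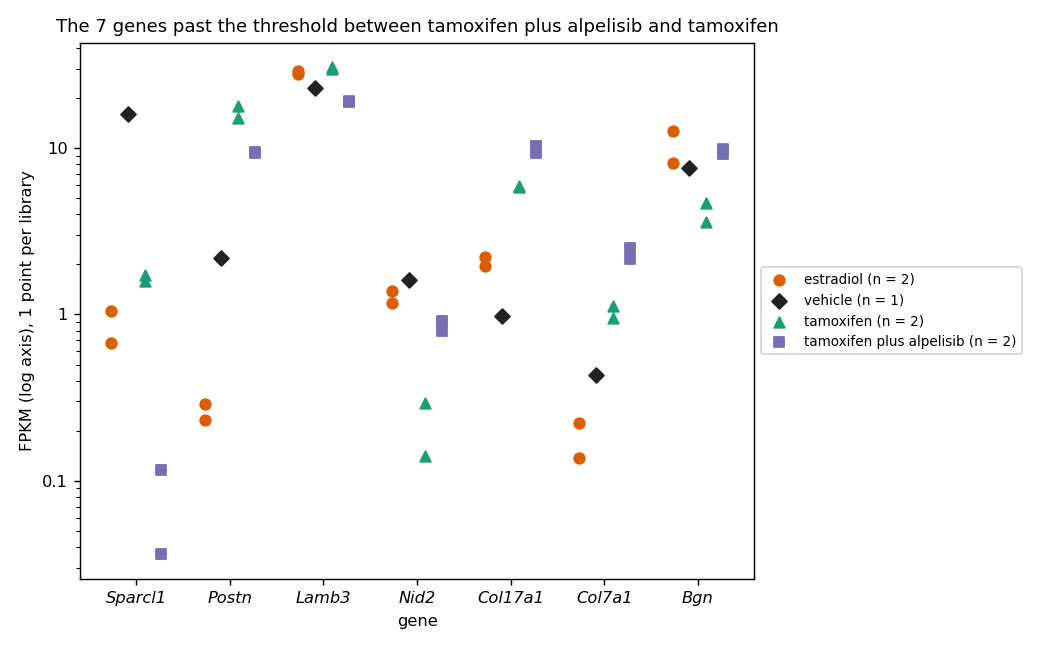
FPKM on a log axis of the 7 genes past the threshold between tamoxifen plus alpelisib and tamoxifen, 1 point per library, with all 4 groups shown. Sparcl1, Postn and Lamb3 are lower with alpelisib than with tamoxifen alone, and Nid2, Col17a1, Col7a1 and Bgn higher.

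Against vehicle, tamoxifen plus alpelisib had 5 genes higher and 18 lower of 36, where 34.9% of all genes passed, 13.1% higher and 21.8% lower. Col5a1, Col15a1 and Nid1, again among those lower, had entered through vehicle alone and lend that count no support. Neither do Col6a3, Col12a1, Col14a1, Hspg2 and Eln, also lower, which had entered only through estradiol and vehicle. Col7a1, among those higher, had entered only through libraries with tamoxifen, so its call lends none. Col7a1 (1.22 ± 0.16, adjusted p = 0.00293) joined the 4 genes higher with tamoxifen alone: Col17a1, Lama3, Postn and Fbln1. Leaving out either alpelisib library left 14 genes past the threshold, and the calls of Lama3 and Fbln1 then ended (adjusted p = 0.0767 to 0.18). Against estradiol, 4 genes were higher and 23 lower, with 53.2% of all genes passing, 15.7% higher and 37.5% lower. Here Col4a2 and Col4a6, both lower, had entered through estradiol alone and lend the count no support. The calls of Col6a3, Col12a1, Col14a1, Hspg2 and Eln, lower here as well, and of Col7a1, higher, lend none for the reasons just given. Fibronectin was 10.8-fold below estradiol (-2.37 ± 0.14, adjusted p = 0.000124) and Col17a1 4.67-fold above it (1.80 ± 0.13, adjusted p = 0.000209).

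Genes that work with these proteins, from 6 other lists, gave the setting. Over all genes tested, 14.9% were higher and 24.1% lower with tamoxifen than vehicle, and 22.7% and 12.8% with estradiol. When alpelisib was added to tamoxifen, 6.93% rose and 4.81% fell. Of 23 tested enzymes and chaperones of collagen processing, 1 was higher and 9 lower with tamoxifen than vehicle, 5 and 5 with estradiol, and 0 and 0 when alpelisib was added to tamoxifen. The collagen chaperone Serpinh1 had 42.1 and 44.1 FPKM with estradiol, 39.5 in vehicle, 11.0 and 11.2 with tamoxifen, and 9.64 and 8.07 in the combination, and fell with tamoxifen (-1.74 ± 0.17, adjusted p = 0.000671). The collagen galactosyltransferase Colgalt1 rose with estradiol (1.34 ± 0.17, adjusted p = 0.00308) and did not pass with tamoxifen (0.14 ± 0.17, adjusted p = 0.573). Among 23 tested matrix receptors, 3 were higher and 9 lower with tamoxifen than vehicle, and 6 and 6 with estradiol. The collagen receptor Ddr2, a discoidin domain kinase, rose with estradiol (1.65 ± 0.19, adjusted p = 0.00209), while the laminin receptor Bcam fell with tamoxifen (-2.14 ± 0.21, adjusted p = 0.000738).

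Small and large proteoglycans, the group that biglycan belongs to, were the list of these 6 with the highest share of calls when alpelisib was added: 7 of 8 rose and 0 fell, with a median of 0.90 beside -0.03 over all genes. Of all genes tested, 6.93% rose and 4.81% fell with alpelisib added. Decorin (Dcn), which regulates fibril width, had 96.3 and 79.1 FPKM with estradiol, 144 in vehicle, 31.7 and 30.9 with tamoxifen, and 86.8 and 93.1 in the combination. Like biglycan it was lowest with tamoxifen alone, and it rose when alpelisib was added (1.49 ± 0.16, adjusted p = 0.00563). Osteoglycin (Ogn) rose as well (1.59 ± 0.16, adjusted p = 0.00489). Among matrix receptors 5 of 23 rose with alpelisib and 0 fell, including the integrin chains Itgav (1.20 ± 0.13, adjusted p = 0.00623) and Itgb5 (1.13 ± 0.13, adjusted p = 0.00717). Of 14 tested elastic fibre and fibulin genes 4 rose and 2 fell, with the latent TGF-beta binding protein gene Ltbp4 at 1.65 ± 0.17, adjusted p = 0.00529.

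The remaining lists hold chains not among the 39. As above, 14.9% of all genes were higher and 24.1% lower with tamoxifen than vehicle, and 22.7% and 12.8% with estradiol. Of 7 other collagen chains tested, 1 was higher and 4 lower with tamoxifen than vehicle, and 1 and 5 with estradiol. Col6a4, a further collagen VI chain, had 0.138 and 0.0643 FPKM with estradiol, 1.45 in vehicle, 2.95 and 2.99 with tamoxifen, and 0.00720 and 0.0154 in the combination. It rose with tamoxifen (0.70 ± 0.15, adjusted p = 0.0123) and fell when alpelisib was added (-1.97 ± 0.12, adjusted p = 0.00198), unlike the 3 collagen VI chains above. Of 8 other laminin and basement membrane genes tested, 1 was higher and 3 lower with tamoxifen than vehicle, and 2 and 3 with estradiol. Smoc2, a calcium-binding glycoprotein of basement membranes, rose with tamoxifen (1.46 ± 0.16, adjusted p = 0.00114) and further with alpelisib (0.64 ± 0.13, adjusted p = 0.0315), and peroxidasin (Pxdn), which crosslinks collagen IV, rose with estradiol (1.80 ± 0.18, adjusted p = 0.00146). Tinagl1 (-1.73 ± 0.23, adjusted p = 0.00343), a secreted basement membrane glycoprotein, and Ntn4 (-1.13 ± 0.21, adjusted p = 0.0101), a laminin-related netrin, fell with estradiol. Estradiol against vehicle also gave 2 higher and 5 lower of the 14 elastic fibre and fibulin genes, and 1 and 2 of the 8 proteoglycans.

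The marker lists of other cell types are set beside the collagens. The 19 collagens summed to 123 and 156 FPKM with estradiol, 69.5 in vehicle, 35.8 and 34.1 with tamoxifen, and 38.9 and 41.2 in the combination. Stromal and smooth muscle markers were highest in vehicle. Against vehicle, 1 of 10 tested stromal markers was higher and 8 lower with estradiol, where collagens rose. With tamoxifen, where collagens fell, 1 was higher and 9 lower. Over all genes, 22.7% were higher and 12.8% lower with estradiol, and 14.9% and 24.1% with tamoxifen. Between tamoxifen and estradiol 1 stromal marker was higher and 2 lower, beside 12.3% higher and 36.2% lower over all genes. The stromal marker Dpt had 20.3 FPKM in vehicle and at most 1.32 elsewhere, with 0 in estradiol 2, Twist2 was listed at 0 in both estradiol libraries, and Pdgfrb in tamoxifen plus alpelisib 2.

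Smooth muscle markers summed to 79.2 FPKM in vehicle and to 13.4 to 27.7 in the other libraries. Of 7 tested, 0 were higher and 5 lower with tamoxifen than vehicle, 0 and 6 with estradiol, and 6 and 0 for tamoxifen against estradiol, where 24 of the 36 matrix genes were lower. Actg2 was listed at 0 in estradiol 2 and both libraries with alpelisib, Lmod1 in the latter pair, and Myocd in these 2 and both estradiol libraries. Endothelial markers moved the same way as collagen IV and perlecan between tamoxifen and estradiol, but unlike collagen IV between estradiol and vehicle. They summed to 19.7 and 13.4 FPKM with estradiol, 26.2 in vehicle, 5.09 and 4.84 with tamoxifen, and 3.69 and 4.68 in the combination. Between tamoxifen and estradiol 7 of 9 were lower and 1 higher, beside 36.2% lower and 12.3% higher over all genes. Against vehicle 0 were higher and 4 lower with estradiol, and 1 higher and 7 lower with tamoxifen. Cldn5 was listed at 0 in both libraries with alpelisib, and Emcn and Tek in the second of them. When alpelisib was added to tamoxifen, 1 of 10 stromal markers rose and 1 fell, and 4 of 7 smooth muscle and 2 of 9 endothelial markers fell. Of 4 mesothelial markers, 3 rose beside biglycan, where 6.93% of all genes rose and 4.81% fell. The mesothelial sum went from 9.62 and 12.1 FPKM to 29.1 and 26.9. That sum was 31.8 and 29.7 FPKM with estradiol and 22.8 in vehicle, so it fell in the same order as the collagen sum over estradiol, vehicle and tamoxifen but not in the combination. All 4 mesothelial markers were lower with tamoxifen than with estradiol, and 2 were higher and 1 lower with estradiol than vehicle. Leukocyte markers summed to 18.5 FPKM in vehicle and 51.3 to 89.9 elsewhere, and 4 erythroid markers to 938 and 1238 FPKM with tamoxifen against 30.4 to 261 in the other 5 libraries. The part of these cell types in the matrix genes' differences was not tested.

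**Figure D5:**
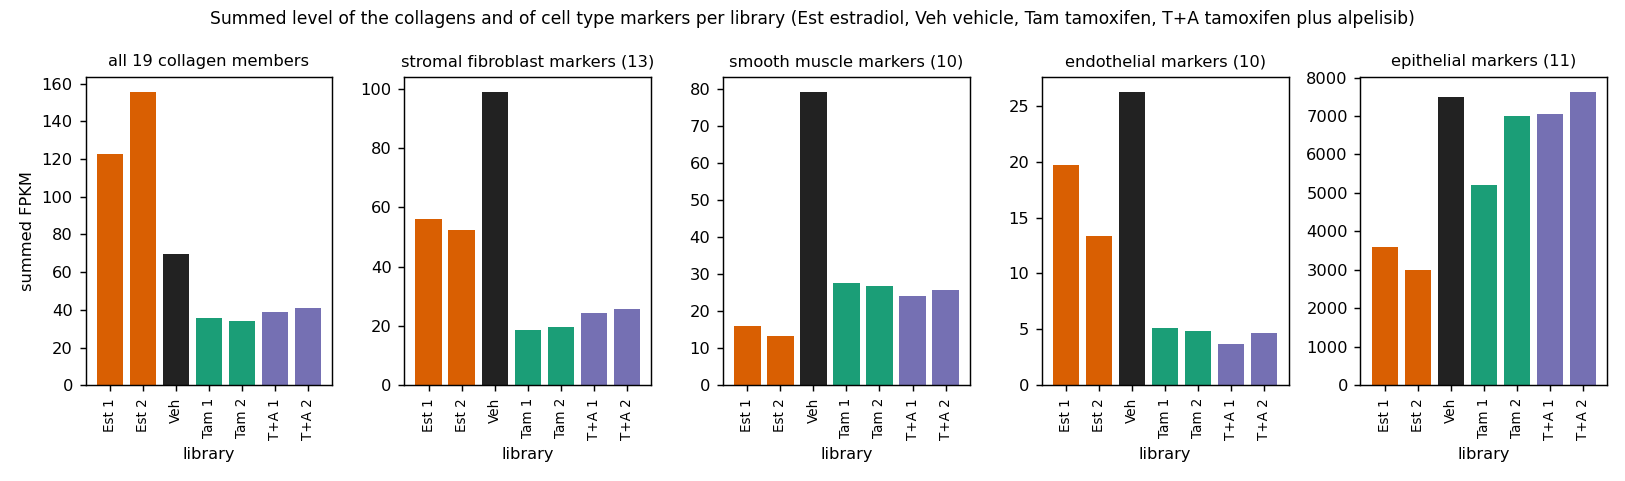
Summed FPKM per library of the 19 collagens and of 4 marker lists, with the number of markers in brackets and a separate vertical axis from 0 in each panel. The collagen sum is highest in the 2 estradiol libraries, whereas stromal, smooth muscle and endothelial marker sums are highest in the vehicle library.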

How the data were processed

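The study measured total RNA by sequencing of 7 libraries, on which the submitters' processing notes name CASAVA, Bowtie and Cufflinks without versions. The authors deposited 1 table of FPKM values, and no counts were used, so no counting interval is given. The only build in those notes is hg19, a human one, although the symbols are mouse symbols, so all positions come from RefSeq. FPKM was summed as deposited and, for tests, taken as log2(FPKM + 1), which understates changes of low genes. limma-trend (limma 3.58.1, R 4.3.3) was fitted to 12314 genes with at least 1 FPKM in at least 1 library, with 4 group means and 3 residual degrees of freedom plus 3.27 from the prior. P values were adjusted by Benjamini-Hochberg over all genes of a comparison, and 0.05 was the threshold. The single vehicle library is assumed to vary like the other groups. Replicates are numbered within groups, and p values measure only the spread between these libraries. The method was tested on simulated data. The 39 genes and all lists were chosen with earlier results of these data known. Genes outside the 39 are named by a rule: up to 3 of lowest adjusted p per list and comparison with a mean of at least 1 FPKM, and markers where their lists are given. Alternatives were size factors, other filters, a pseudocount of 0.1, only the compared groups, a replicate block and each replicate left out.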

Additional observations from a re-analysis of the deposited data

How the results depend on the processing

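Of 1879 values of single genes under the alternatives, 1715 stayed on their side of the threshold, 143 no longer passed and 21 newly passed. Direction changed for 27 values that passed in neither fit and for 0 of those past the threshold. Calls that held under all alternatives in which the gene was tested numbered 19 of 24 for tamoxifen against vehicle, 6 of 22 for estradiol against vehicle, 13 of 23 for tamoxifen plus alpelisib against vehicle, 25 of 29 for tamoxifen against estradiol, 22 of 27 for tamoxifen plus alpelisib against estradiol, and 0 of 7 for tamoxifen plus alpelisib against tamoxifen. The count for estradiol against vehicle was 6 with only these groups in the fit. Leaving out a replicate gave 14 for tamoxifen plus alpelisib against vehicle in its lowest case, and 0 to 2 for tamoxifen plus alpelisib against tamoxifen. With a replicate block the counts were 13 for estradiol against vehicle and 1 for tamoxifen plus alpelisib against tamoxifen. The other 4 comparisons had 23, 20, 28 and 27 calls with the block, in the order tamoxifen against vehicle, tamoxifen plus alpelisib against vehicle, tamoxifen against estradiol, and tamoxifen plus alpelisib against estradiol. The labels give no pairing of same-numbered libraries. Deviations of same-numbered libraries correlated at -0.40, -0.18 and 0.27 between estradiol and tamoxifen, estradiol and tamoxifen plus alpelisib, and tamoxifen and tamoxifen plus alpelisib. With a single difference per group, these values cannot show whether the libraries are paired. The table gives no depth, which limits genes near 0 most, and the single vehicle library could not be left out.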
